A study of Mus musculus with 4 samples.

Results

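The Schwann cell and myelin genes examined here are Mbp, Prx, Pmp22, S100b, Sox10, Mag, Ncam1 and Egr2. They were chosen by gene name, with earlier results of these data known, so counts set beside shares of all probes are descriptions. Every array probe carrying any of the 8 names was used, which gave 20 of 41174 non-control probes. Messenger RNA of skeletal muscle from mice aged 10 weeks and fed ad lib was measured on 1-colour Agilent oligonucleotide arrays. The WT group carried no mutation named in the labels, the TBP-2-/- group lacked TBP-2, the thioredoxin-binding protein encoded by Txnip, the ob/ob group lacked functional leptin, and the ob/ob TBP-2-/- group lacked both. Each genotype had 1 array, so no difference has a replicate check, and all 4 arrays lay on 1 slide. The muscle, sex and strain, the extent of the Txnip deletion and any pooling of animals are not given in the sources used here.

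Schwann cells are the glia of peripheral nerve, and in skeletal muscle they ensheathe the motor and sensory axons of the intramuscular nerves and cap the neuromuscular junctions. Myelinating Schwann cells wrap an axon in compacted membrane, held together by proteins that include Mbp and Pmp22, while periaxin, the product of Prx, links the outer membrane through Drp2 and dystroglycan to the basal lamina. Sox10 is the transcription factor that defines the lineage, and together with it Egr2 switches on the genes of myelin proteins and lipids. In whole muscle, fewer cells of a type and less RNA per cell cannot be told apart.

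The 8 genes were detected in every genotype. A probe counted as well above background when the scanner software marked most of its spots so, which here covers 15 of the 20 probes on all 4 arrays, with at least 1 probe for each gene. Values are given as scaled signals, with every array's 75th percentile set to 288, or as log2 differences with the standard error of the scanner software's error model. That error covers the spots, not the spread between mice. The arrays had 22674 to 24220 probes well above background and no saturated spot. Txnip checked the labels for TBP-2, though not for ob/ob. Its brightest probe read 13608 in WT, 816 in TBP-2-/-, 12277 in ob/ob and 183 in ob/ob TBP-2-/-.

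Mbp showed the widest range of signals among the 8 brightest probes. Mbp encodes myelin basic protein, the cytoplasmic protein that zips the inner faces of the myelin membrane together. Its brightest probe, which is printed on 10 spots and matches chr18:82719791-82719850 of mm8 on the plus strand (transcript variant 7), read 450.7 in WT, 1534 in TBP-2-/-, 773 in ob/ob and 1414 in ob/ob TBP-2-/-. Both arrays without TBP-2 stood above both arrays with it. The spots of this probe had an SD of 0.037 to 0.050 on the log2 scale. A probe for the same variant whose match spans 2305 bases of mm8, and therefore crosses an intron, read 19.5, 77.5, 47.6 and 67.3 in the same order. A probe placed further upstream, on variant 8, read 147, 217, 143 and 163, a range of 1.52-fold against 3.40-fold for the brightest probe. The order of the arrays differed between the probes for variant 7 and the probe for variant 8, where ob/ob was lowest and WT next to it.

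Pmp22 and Prx gave almost the same profile. Pmp22 encodes the tetraspan protein of compact myelin whose gene dosage is altered in hereditary neuropathies. Its bright probe (chr11:62975607-62975666, plus strand) read 3688 in WT, 8059 in TBP-2-/-, 6615 in ob/ob and 9680 in ob/ob TBP-2-/-. The Prx probe (chr7:27228074-27228133, plus strand) read 134, 298, 243 and 354 in that order. WT was lowest and ob/ob TBP-2-/- highest for both genes, and the arrays without TBP-2 stood above those with it. Scaled to the spike-in RNA instead, TBP-2-/- rose by 0.25 and ob/ob by 0.65 on the log2 scale against WT. That puts ob/ob above TBP-2-/- for both genes. With each gene's log2 levels centred over the 4 arrays, Pmp22 was the nearest to Prx of 14906 genes compared, at a root mean square distance of 0.0080 on the log2 scale. The next were Bace2 (0.059), Sostdc1 (0.059), Gria3 (0.065) and Emp1 (0.067). Emp1 encodes a membrane protein of the same family as Pmp22, and it read 556, 1150 in TBP-2-/-, 1070 in ob/ob and 1434 in ob/ob TBP-2-/-. The 5 genes nearest to Mbp were Arhgdig (0.070), Rgcc (0.085), Cenpe (0.098), Adgrg2 (0.099) and Eda (0.14). A distance over 4 arrays is a description, and the arrays share the slide and the scaling.

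S100b, the calcium-binding protein long used as a marker of Schwann cells (probe at chr10:75703680-75703739, plus strand), read 262 in WT, 523 in TBP-2-/-, 334 in ob/ob and 670.0 in ob/ob TBP-2-/-. Both arrays without TBP-2 were again above both with it. Sox10 (chr15:78982330-78982389, minus strand) read 81.8, 115, 125 and 126 in the same order, with WT apart from the other arrays and little spread among those. Its other probe was not well above background on any array. Egr2, on 10 spots (chr10:66937367-66937426, plus strand), read 169.5 in WT, 219.7 in TBP-2-/-, 206 in ob/ob and 316 in ob/ob TBP-2-/-, highest where both genes were disrupted. Here too the arrays without TBP-2 were above those with it, but TBP-2-/- and ob/ob lay close, and spike-in scaling reverses their order.

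Mag and Ncam1 were the flattest of the genes by their brightest probe. Mag encodes myelin-associated glycoprotein, which sits in the innermost myelin layer and faces the axon. Its brighter probe (chr7:30607972-30608031, minus strand) read 320.3 in WT, 329 in TBP-2-/-, 357 in ob/ob and 426 in ob/ob TBP-2-/-, and its dimmer probe stayed between 31.3 and 38.2. Ncam1 encodes the neural cell adhesion molecule, which non-myelinating Schwann cells, muscle satellite cells and denervated fibres carry as well, so it is the least specific of the 8. Its brightest probe (chr9:49269730-49269789, minus strand) read 361, 336, 399 and 494. The other Ncam1 probes did not follow a single pattern. The second brightest read 127, 179, 223 and 288, and a probe in the part of the transcript for the long transmembrane forms, according to its annotation, read 71.7, 78.8, 97.6 and 63.3. The first of these was highest in ob/ob TBP-2-/- and the other lowest there. A pair of dim Ncam1 probes was well above background on every array but WT, with signals of 12.8 to 16.8 there, and 1 more on none. A dim Pmp22 probe, which lies on the strand opposite to the gene, was well above background in ob/ob alone, at 14.1.

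Over the 15 probes measured throughout, WT was the lowest array for 10, against 23.4% of all 21734 probes measured throughout, and ob/ob TBP-2-/- the highest for 10 (27.6% of all). TBP-2-/- was the highest for 4 (15.7% of all), among them all 3 Mbp probes, and ob/ob for 1 (22.9% of all). WT was the highest for 0, against 33.8% of all probes.

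**Figure D1:**
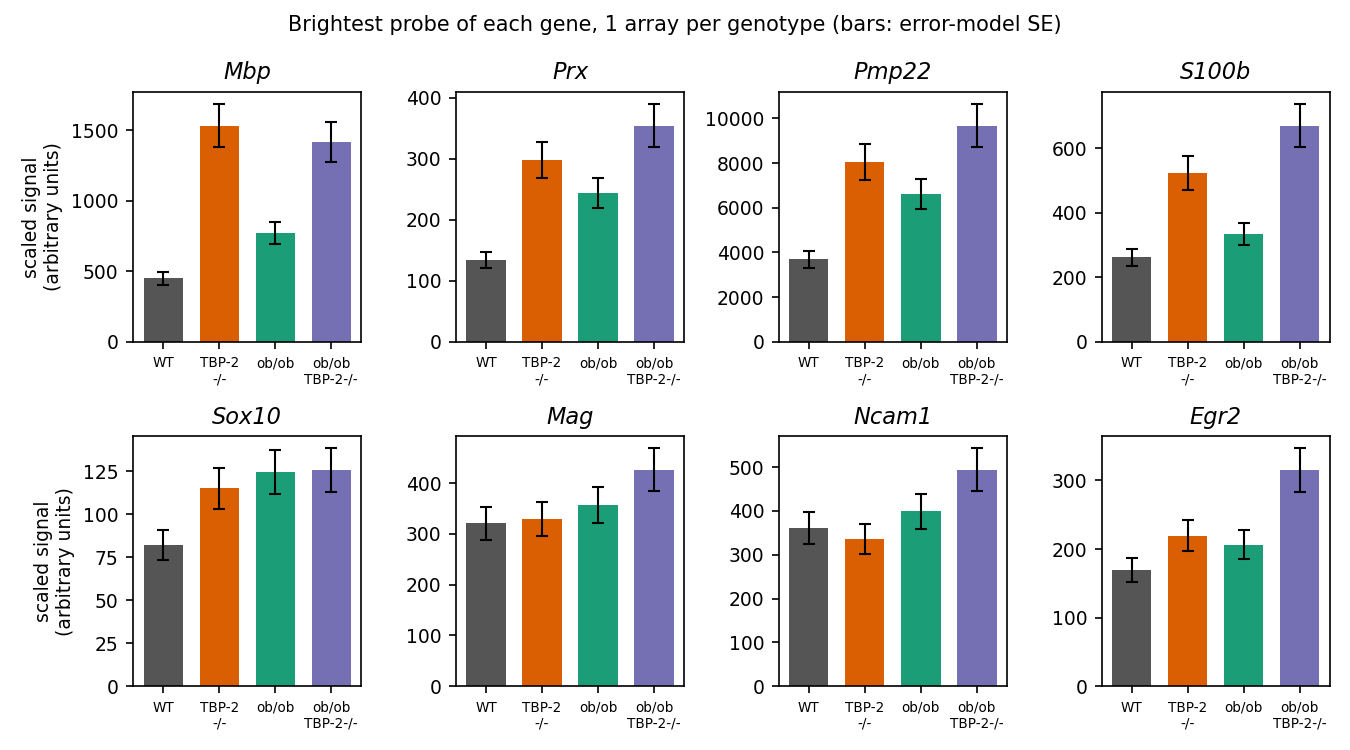
Scaled signal (arbitrary units, vertical axis from 0) of the brightest probe of each gene on the 4 arrays, with 1 bar per genotype and the error-model standard error as error bars. Mbp, Prx, Pmp22, S100b and Egr2 are higher on both arrays without TBP-2, though spike-in scaling puts ob/ob above TBP-2-/- for Prx, Pmp22 and Egr2. Prx and Pmp22 share 1 shape, and Mag stays between 320.3 and 426.

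The stretches of DNA just upstream of the genes were read because Prx and Pmp22 had almost the same profile. S100b had their order of arrays with a smaller step from WT to ob/ob, and Mag was flatter. RefSeq promoters of GRCm38.p6 were matched by symbol for 5 of the genes (Prx, Pmp22, S100b, Mag and Egr2), with 14 annotated starts. The 250 bases before the start are printed 5′ to 3′ on the gene's strand, from the most upstream start of the gene, in lower case. Capitals mark matches on either strand to short words that SOX and EGR proteins are known to bind, which do not overlap each other in the 4 windows shown. The SOX words were ACAAAG with its variant ACAATG, and beside these TCAAAG with its variant TCAATG. The EGR word was GTGGGNG, with N for any base. The Prx window is chr7:27499074-27499323 (plus strand), the Pmp22 window chr11:63128732-63128981 (plus strand), the S100b window chr10:76253586-76253835 (plus strand) and the Mag window chr7:30914923-30915172 (minus strand).
Prx: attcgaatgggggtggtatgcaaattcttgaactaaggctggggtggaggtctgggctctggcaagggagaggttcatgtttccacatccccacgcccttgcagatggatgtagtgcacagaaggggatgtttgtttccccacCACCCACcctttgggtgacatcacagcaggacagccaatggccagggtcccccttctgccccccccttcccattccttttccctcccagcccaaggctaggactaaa
Pmp22: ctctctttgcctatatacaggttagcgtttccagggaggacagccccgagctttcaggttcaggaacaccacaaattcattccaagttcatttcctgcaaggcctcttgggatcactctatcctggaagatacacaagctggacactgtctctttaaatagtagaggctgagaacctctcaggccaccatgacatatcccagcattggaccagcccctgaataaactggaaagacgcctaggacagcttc
S100b: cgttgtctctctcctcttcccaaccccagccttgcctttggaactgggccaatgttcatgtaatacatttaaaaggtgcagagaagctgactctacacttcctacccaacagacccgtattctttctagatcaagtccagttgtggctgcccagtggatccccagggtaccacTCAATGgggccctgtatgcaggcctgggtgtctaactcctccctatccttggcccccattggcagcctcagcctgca
Mag: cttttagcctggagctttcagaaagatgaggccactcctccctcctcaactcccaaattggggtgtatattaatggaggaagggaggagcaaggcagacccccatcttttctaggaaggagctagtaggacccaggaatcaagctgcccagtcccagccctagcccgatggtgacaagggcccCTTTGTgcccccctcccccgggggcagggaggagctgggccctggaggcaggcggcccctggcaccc

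The Prx window holds 1 EGR word, which begins 107 bases before the start, and no SOX word. The Pmp22 window holds neither. S100b has 1 SOX word 77 bases before its start and Mag has 1 at 67 bases. Over all 14 starts, 4 windows of 2 genes (S100b and Mag) had a SOX word, against 39.4% of 32851 mouse promoters of the same length, and 3 windows (Prx, Mag and Egr2) had an EGR word, against 28.1%. Windows of a gene can overlap, and 2 of the Mag windows hold the same SOX word. A match is a description of the letters, and Prx and Pmp22, closest in their signals, shared no match in these windows.

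Loss of TBP-2 in lean mice was the comparison with the highest member values. In TBP-2-/- against WT, Mbp was 3.40-fold higher (log2 difference 1.77, SE 0.20), and its intron-crossing probe 3.97-fold. Prx was 2.22-fold higher (1.15, SE 0.21) and Pmp22 2.19-fold (1.13, SE 0.20). S100b, at 1.998-fold (0.999, SE 0.20), lay just under the 2-fold threshold. In all, 4 of the 15 probes measured on both arrays were at least 2-fold higher, where 1.51% of all 22248 probes were, and 0 were 2-fold lower (0.823% of all probes). The variant 8 probe of Mbp was 1.48-fold higher, Sox10 1.40-fold and Egr2 1.30-fold. Differences of 0.57 to 0.37 on the log2 scale in these genes exceeded their error-model SE of 0.21. Mag was 1.03-fold higher, which is inside its error. Ncam1 ranged from 1.43-fold lower on the fifth probe by brightness to 1.61-fold higher on the fourth. The median of the 15 probes was 0.49, and that of all probes -0.07. Above 0 were 13 of 15, against 40.3% of all probes, and under the other scalings and background correction tried 11 to 14 were.

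In ob/ob mice the differences with the same loss were smaller for Mbp, Prx, Pmp22 and Sox10, near equal for S100b, and not smaller for Egr2, Mag and the brightest Ncam1 probe. In ob/ob TBP-2-/- against ob/ob, S100b was 2.01-fold higher (log2 difference 1.01, SE 0.20), the only probe of 17 measured to reach 2-fold (1.69% of all probes). Mbp was 1.83-fold higher (0.87, SE 0.20), Egr2 1.53-fold, and Prx and Pmp22 1.46-fold each. Sox10 differed by 1.01-fold. The Ncam1 probe for the long forms was 1.54-fold lower (-0.62, SE 0.21), the only one of the 17 below 0, and no probe was 2-fold lower (0.862% of all probes). The median was 0.33 against 0.02 for all probes, with 16 of 17 above 0 against 53.0% of all. Scaled to the spike-in RNA instead, only 6 of the 17 were above 0 and the median was -0.18, while all probes had a median of -0.50, so in this pair the sign of a small difference depends on the scaling.

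The comparisons of ob/ob with its lean counterpart share arrays with those above, so they add no independent observation. In ob/ob against WT, Prx was 1.81-fold higher (log2 difference 0.86, SE 0.21), Pmp22 1.79-fold (0.84, SE 0.20), Mbp 1.72-fold (0.78, SE 0.20) and Sox10 1.52-fold (0.61, SE 0.21). Among 15 measured probes, 1 was at least 2-fold higher (1.77% of all probes), the intron-crossing probe of Mbp at 2.44-fold, and 0 were 2-fold lower (1.64%). The second brightest Ncam1 probe was 1.75-fold higher and S100b 1.28-fold. Of the 15, 13 were above 0 (46.2% of all probes), with a median of 0.44 against -0.03. Under spike-in scaling all 15 were above 0 and 8 were 2-fold higher, while all probes had a median of 0.62. Between the arrays without TBP-2 the myelin genes differed little. In ob/ob TBP-2-/- against TBP-2-/-, Mbp was 1.08-fold lower (-0.12, SE 0.20), Prx 1.19-fold and Pmp22 1.20-fold higher, and 0 of 17 probes reached 2-fold in either direction (3.13% of all probes), with 12 of 17 above 0 (54.7% of all). The highest were Ncam1, with 1.61-fold on the second probe by brightness and 1.85-fold on the fifth, and Egr2 was 1.44-fold higher.

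**Figure D2:**
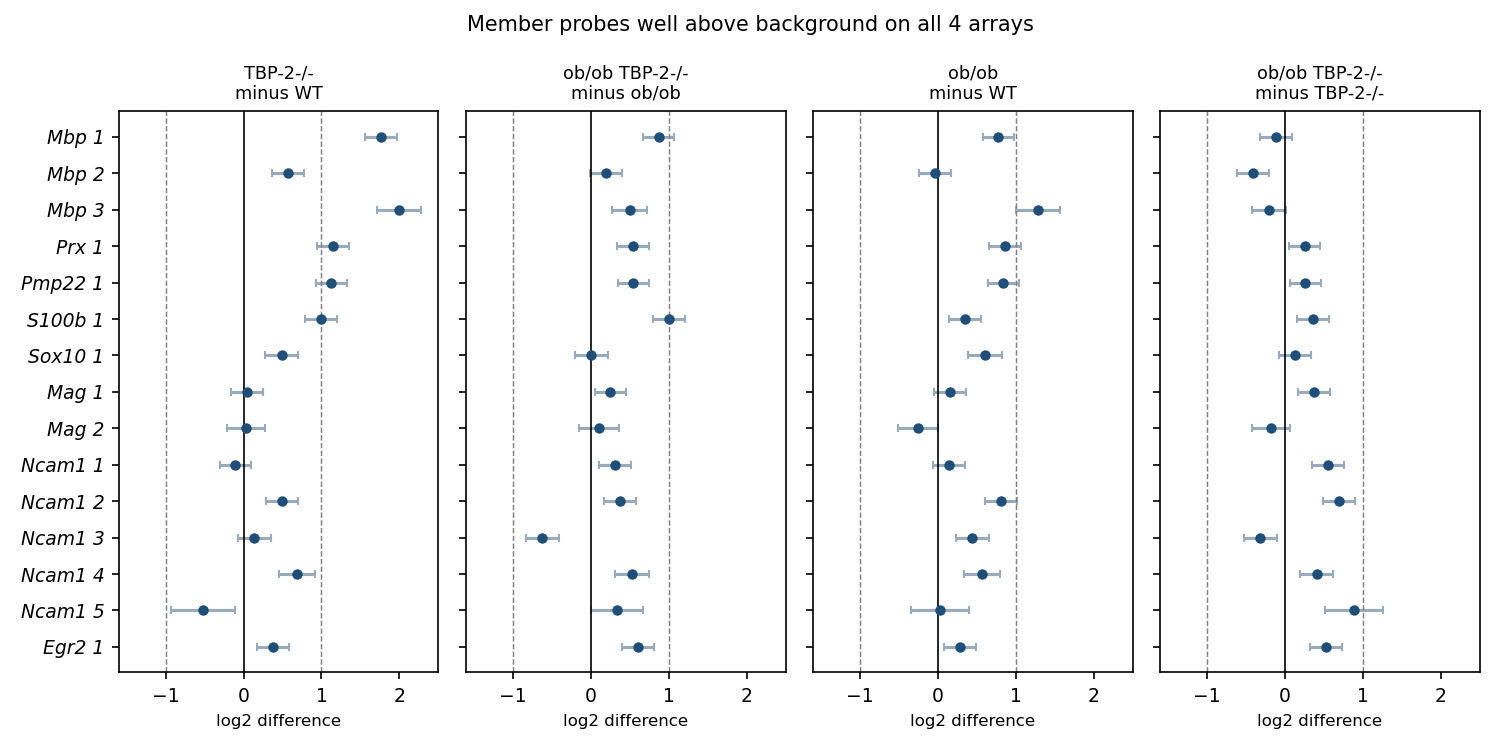
Log2 differences (horizontal axes, dashed lines at 2-fold) of the 15 probes well above background on all 4 arrays in the 4 comparisons, with error-model standard errors and probes numbered by brightness within a gene. Mbp 1 and Mbp 3 stand at 1.77 and 1.99 in TBP-2-/- minus WT, and no point passes 2-fold in ob/ob TBP-2-/- minus TBP-2-/-; under spike-in scaling 8 of the points in the second panel, 2 in the third and 1 in the first change sign.

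The difference between the TBP-2 effects, ob/ob minus lean, was negative for Mbp on its brightest probe (-0.90, SE 0.29) and on the intron-crossing probe (-1.49, SE 0.36). The latter was the only member probe beyond 2-fold, where 2.09% of all 21734 probes were 2-fold lower and 1.65% higher. Prx gave -0.61 (SE 0.29), Pmp22 -0.58 (SE 0.29) and Sox10 -0.48 (SE 0.30). For S100b the difference was 0.01 (SE 0.29), with TBP-2 effects of 0.999 and 1.01. Egr2 gave 0.24 (SE 0.29), the brighter Mag probe 0.22 (SE 0.29) and the brightest Ncam1 probe 0.41 (SE 0.29). These errors leave out the spread between mice, and each effect rests on 1 array a group. Spike-in scaling moved all lean effects by 0.25 and all ob/ob effects by -0.52, which lowers every such difference alike. The values above 0 given here, that of S100b among them, then turn negative.

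**Figure D3:**
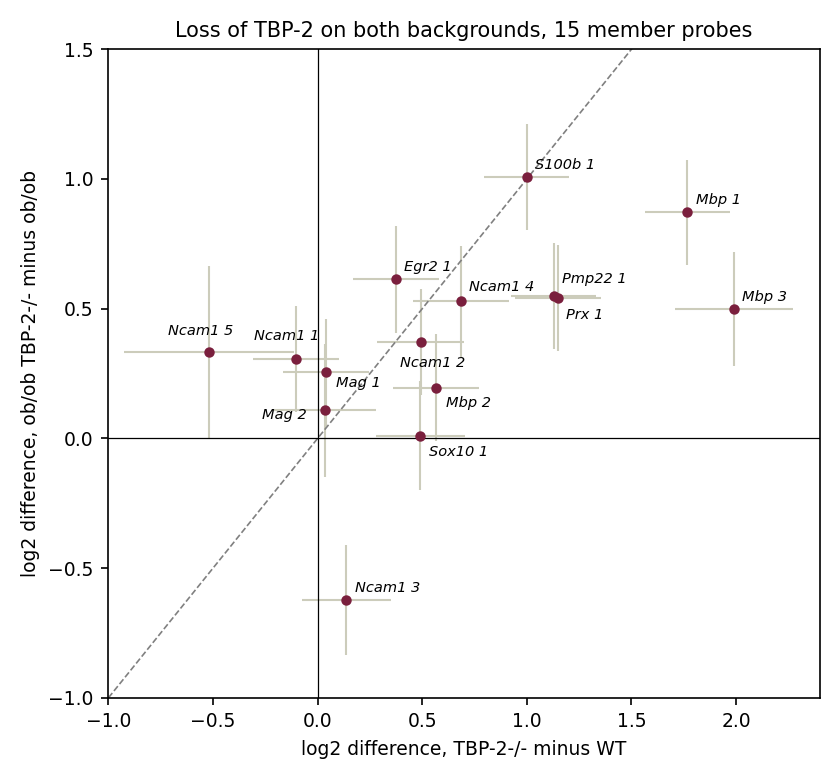
Log2 difference without TBP-2 in lean mice (horizontal axis) and in ob/ob mice (vertical axis) for the 15 probes measured on all 4 arrays, with error-model standard errors and a dashed line of equal effects. S100b lies on the line at 0.999 and 1.01, while both variant 7 probes of Mbp, Prx and Pmp22 lie below it; spike-in scaling moves all points together and puts 10 of the 17 probes measured in ob/ob mice at the opposite sign.

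Fitting both genotypes as additive terms to the 4 arrays with limma left 1 residual degree of freedom. It called 0 of 17 member probes for either genotype at an adjusted p of 0.05, where it called 0.0717% of all 23702 probes for Txnip and 0.101% for ob/ob. For Txnip, 7 of the 17 had an unadjusted p under 0.05, against 8.86% of all probes, and the lowest adjusted p was 0.255, for S100b (fitted log2 effect 1.003, SE 0.16). Mbp had a fitted effect of 1.32 (SE 0.26, limma adjusted p = 0.346). For ob/ob, 2 of the 17 had an unadjusted p under 0.05 (13.2% of all probes), and the lowest adjusted p was 0.232, for the second brightest Ncam1 probe (0.75, SE 0.16). With normexp background correction the fit called 5 member probes for Txnip (both variant 7 probes of Mbp, Prx, Pmp22 and S100b) and 2 for ob/ob (Pmp22 and Ncam1), where 2.52% and 4.59% of all probes were called. With a trended prior it called S100b for Txnip (limma adjusted p = 0.028), where 0.485% of all probes were called.

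Other genes of myelin were followed through lists. Of 13 further myelin protein genes, 11 were measured in each comparison, by the brightest probe of each gene. In TBP-2-/- against WT all 11 were above 0 (39.6% of all genes), with a median of 0.64 against -0.07 for all genes, and 3 were 2-fold higher (1.73% of all genes). These were Mal, a tetraspan protein of myelin rafts, at 2.72-fold, Ncmap, a protein of noncompact myelin, at 2.58-fold, and Pllp, plasmolipin, at 2.21-fold. In ob/ob TBP-2-/- against ob/ob, 10 of 11 were above 0 (55.6% of all genes) with a median of 0.53 against 0.04. The exception was Gjb1, the gap junction protein of noncompact myelin, which read 16.7, 17.9, 76.3 and 17.2 and so was 4.44-fold lower in the double mutant, high on the ob/ob array alone. Spike-in scaling left 7 of the 11 above 0 in this pair, where all probes had a median of -0.50. In ob/ob against WT, 8 of 11 were above 0 (44.4% of all genes), with a median of 0.63, and 3 were 2-fold higher (1.88% of all genes): Gjb1, Mal and Pllp. This median was 0.14 with normexp background correction (7 of 11 above 0) and 1.28 with spike-in scaling (11 of 11). The median of 0.64 for TBP-2-/- against WT was 0.33 with normexp (10 of 11 above 0).

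The partners of periaxin followed the same order in part. Drp2, dystrophin-related protein 2, which joins periaxin to dystroglycan, read 14.0 in WT, 36.6 in TBP-2-/-, 25.0 in ob/ob and 37.3 in ob/ob TBP-2-/-, 2.61-fold higher in TBP-2-/- than in WT. Itgb4, the laminin receptor subunit of mature Schwann cells, was 1.60-fold and Ezr, ezrin, 1.67-fold higher in that comparison, and Dag1, dystroglycan, was 1.15-fold lower. Of the 11 genes of the list 10 were above 0 there (39.6% of all genes), with a median of 0.41 (0.66 with spike-in scaling), and 1 was 2-fold higher (1.73% of all genes). Among genes of myelin lipids, those of the galactolipid branch were dim in WT. Ugt8a, which makes galactosylceramide, read 11.8, 36.4, 18.5 and 35.2, at least 3.08-fold higher in TBP-2-/- than in WT, where it was not well above background. Fa2h, the fatty acid 2-hydroxylase, read 11.6, 34.5, 16.7 and 35.9, at least 2.97-fold higher. For such bounds the dim side was taken as the lowest signal well above background on its array, or as the probe's own signal where that was higher. The 12 measured genes of the list, mostly of cholesterol synthesis, had a median of -0.05, with 6 of 12 above 0.

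Regulators and signals of Schwann cells were less uniform. Dhh, the hedgehog ligand that Schwann cells send to the nerve sheath, read 109 in WT, 261 in TBP-2-/-, 233 in ob/ob and 289 in ob/ob TBP-2-/-, with TBP-2-/- 2.39-fold and ob/ob 2.14-fold above WT. It was the only 1 of 7 measured receptor and signal genes to reach 2-fold in either comparison, where 1.73% and 1.88% of all genes were 2-fold higher. Erbb3, the neuregulin receptor of the lineage, was at 326, 308, 306 and 203, lowest in ob/ob TBP-2-/-. Their medians were 0.50 (0.33 with normexp) and 0.29 for loss of TBP-2 in lean and ob/ob mice. The 9 measured transcription factors and cofactors had medians of 0.11 and 0.04 in the same comparisons, with none at 2-fold, and Nab2, a corepressor that binds EGR proteins, was 1.33-fold higher in the first and 1.42-fold lower in the second. Sox2 and Pou3f2, of immature Schwann cells, and Gfap, Gap43 and Cdh19 were not well above background on any array. The same held for Mog, Opalin, Olig1 and Cldn11 of central nervous system myelin, of which list only Mobp was measured on all arrays (61.4, 60.7, 71.0 and 80.5).

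Some markers of other structures differed between the same arrays. Among axonal genes Uchl1 read 335, 752, 767 and 1058 and Sncg 114, 237, 194 and 386, in the order WT, TBP-2-/-, ob/ob and ob/ob TBP-2-/-. The 4 of 14 axonal genes measured on all arrays summed to 581, 1207, 1107 and 1646. Nefh, the heavy neurofilament subunit, went the other way: it read 59.1 in WT and was not well above background on the other arrays, at least 6.70-fold higher in WT than in TBP-2-/-, and it is named after its values were seen. The genes Nefl, Nefm, Chat, Slc18a3, Snap25 and Calca were not well above background on any array. Tendon genes set WT furthest apart: 9 of 10 were measured on all arrays and their summed signal was 6321 in WT and 20481, 28982 and 38180 on the others. Fmod, fibromodulin of tendon, was 24.1-fold and Comp 32.1-fold higher in TBP-2-/- than in WT. Adipocyte genes had medians of 0.72 and 1.30 for loss of TBP-2 in lean and ob/ob mice, and fibroblast genes 0.48 and 0.43. Macrophage genes were at 0.54 and 0.36. The 16 neuromuscular junction genes measured were at 0.15 and 0.01, the 6 and 7 satellite cell genes at 0.17 and 0.27, and the 12 fibre genes at -0.15 and 0.12. Medians were 0.04 and 0.25 for node and axon-glia adhesion genes, -0.01 and -0.07 for perineurium and endoneurium, 0.20 and -0.18 for endothelium, -0.06 and 0.0037 for smooth muscle, and -0.04 and 0.31 for lymphocytes. Immediate early genes had medians of -0.57 and -0.48, with Egr1, the relative of Egr2, 3.32-fold lower in TBP-2-/- than in WT. Under spike-in scaling 19 of the 20 list medians lay above 0 in TBP-2-/- against WT and 18 lay below 0 in ob/ob TBP-2-/- against ob/ob, where myelin proteins (0.01) and adipocyte genes (0.78) did not. The part of tissue composition in the values of the myelin genes was not tested.

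**Figure D4:**
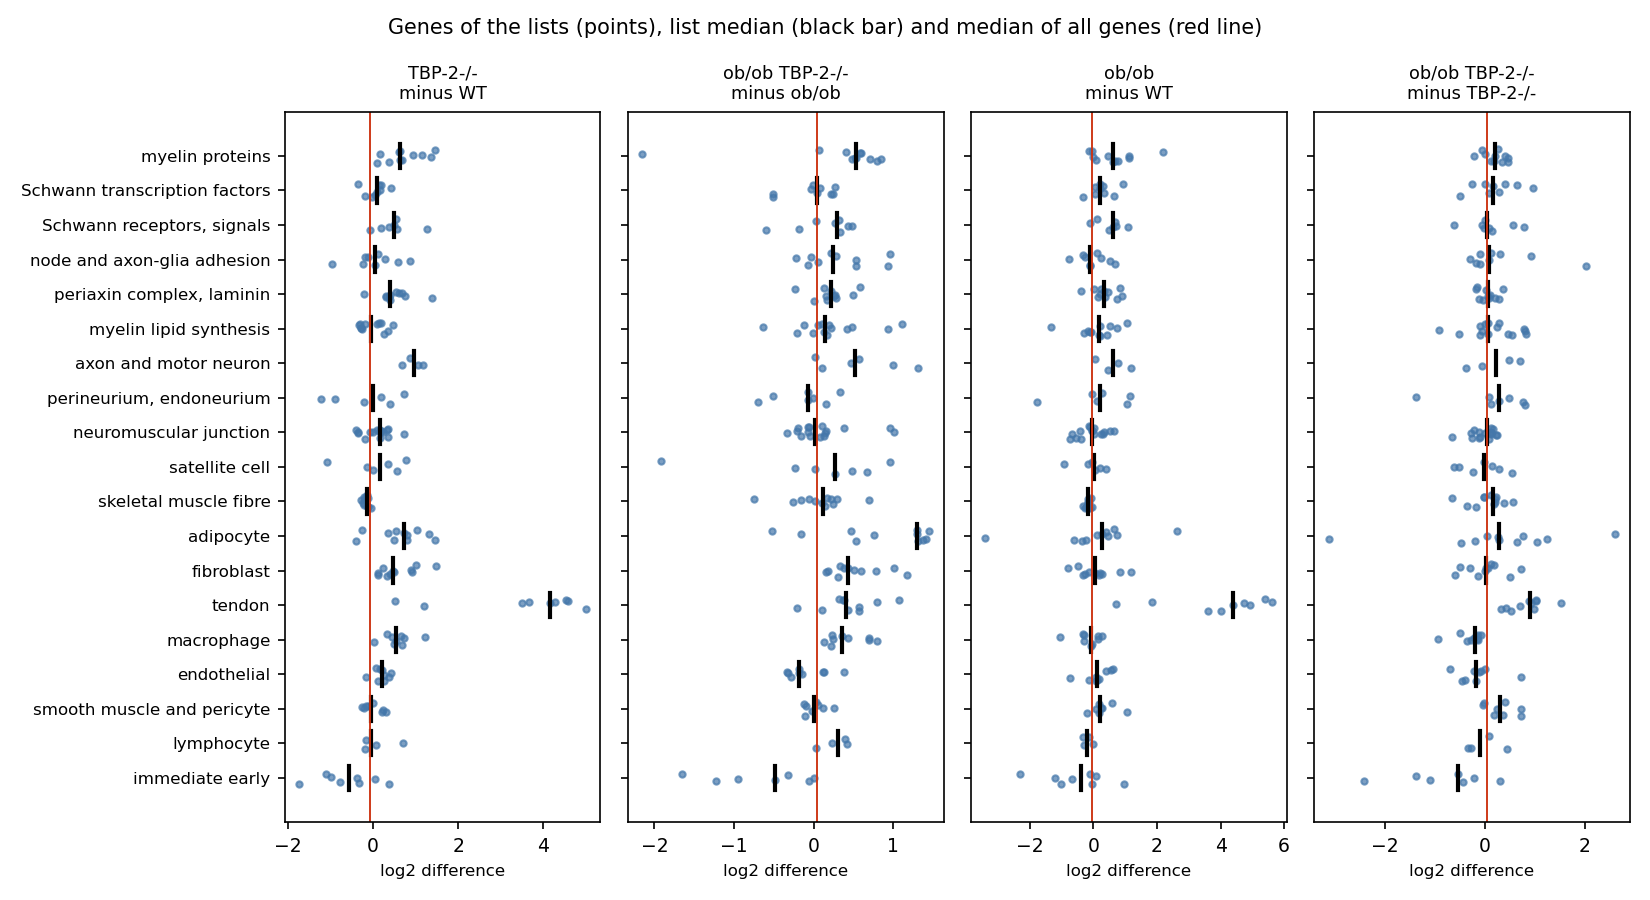
Log2 differences (horizontal axes, with a range of their own in each panel) of the measured genes of each list, by brightest probe, in the 4 comparisons, with the list median as a black bar and the median of all genes as a red line. Myelin proteins have medians of 0.64, 0.53, 0.63 and 0.21 from left to right, and tendon genes lie at 4.17 and 4.40 in the comparisons against WT; spike-in scaling moves all points of a panel together, by 0.25, -0.52, 0.65 and -0.12.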

How the data were processed

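The 4 arrays were read with Agilent Feature Extraction 9.5.3.1, per the submitters' processing notes. The processed signal is an intensity that was background-subtracted and detrended within each array per the file headers, with no scaling between arrays. The value table deposited by the authors holds log2 values centred on each probe over the arrays, as comparison with the scanner signals shows, and served as an alternative. Analysis started from log2 of this signal, without outlier spots (59 to 110 an array), averaged over the spots of a probe, minus the 75th percentile of each array. A gene of a list was represented by its brightest probe, and a comparison used probes well above background on both arrays. Called means at least 2-fold, with 1.5-fold as an alternative. The error of a difference comes from the scanner software's error model. The additive fit used limma 3.58.1 in R 4.3.3 on probes well above background on at least 2 arrays, with Benjamini-Hochberg adjustment over 23702 probes, and was tested on simulated data. The fit takes its error from how far the arrays depart from additivity, in the probe itself (1 degree of freedom) and pooled over all probes (3.54 prior degrees of freedom). With normexp correction or spike-in scaling the prior degrees of freedom were infinite, so every probe took the pooled error. Alternatives were quantile, detected-probe percentile, median and spike-in scaling (8 probes), normexp correction (offset 50), and filters. Probes carry the mm8 positions of the files. Genes of the lists were named through a RefSeq table of GRCm38.p6 by accession (24367 probes), symbol (6307) or synonym (2425), and otherwise by the file (8075). The members and the 20 gene lists were chosen with earlier results of these data known. Named are all member probes, up to 6 genes per Schwann or myelin list and up to 4 of other lists with the largest differences in a comparison, defining markers not above background, Txnip, and the 5 genes nearest in profile to Mbp and to Prx. The values of 1 gene of the myelin protein list are not reported here.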

Additional observations from a re-analysis of the deposited data

Results flagged for a closer look

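Ncam1 probes gave a pair of results in which the effect ran opposite ways on the backgrounds. The fifth Ncam1 probe by brightness read 18.5 in WT, 12.9 in TBP-2-/-, 18.9 in ob/ob and 23.9 in ob/ob TBP-2-/-, so loss of TBP-2 went with a lower value in lean mice (log2 difference -0.52, SE 0.41) and a higher one in ob/ob mice (0.33, SE 0.33), a gap of 0.85 (SE 0.52). Scaled to the spike-in RNA, the difference in ob/ob mice was -0.18, with the same sign as in lean mice. The Ncam1 probe for the long transmembrane forms was higher in ob/ob than in WT (0.44, SE 0.21) and lower in ob/ob TBP-2-/- than in TBP-2-/- (-0.32, SE 0.21), a gap of -0.76 (SE 0.30). Neither difference between backgrounds was tested, because each genotype has 1 array.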

How the results depend on the processing

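Of 64 member differences, 6 were 2-fold or more, and none of the 6 changed sign under any scaling, correction or value table tried. Among all 64, spike-in scaling turned 13 signs, median scaling 5, quantile normalization 4, normexp 3, the detected-probe percentile 2 and the values the authors deposited 0. The 4 probes 2-fold higher in TBP-2-/- than in WT became 5 with quantile, detected-probe percentile and spike-in scaling, 6 at 1.5-fold, 3 with 1 probe per gene and 2 with normexp, where the intron-crossing Mbp probe was at 0.77 and Prx at 0.90 on the log2 scale. In ob/ob TBP-2-/- against ob/ob the 1 higher probe became 0 with the detected-probe percentile, spike-in, median and normexp and 3 at 1.5-fold, and the 0 lower probes became 1 with spike-in scaling and at 1.5-fold. In ob/ob against WT the 1 higher probe became 2 with quantile normalization or no filter, 6 at 1.5-fold, and 0 with normexp or 1 probe per gene. It became 8 with spike-in scaling, which raised all probes of this pair by 0.65. In ob/ob TBP-2-/- against TBP-2-/- the 0 higher probes became 2 at 1.5-fold and the 0 lower became 1 without the filter. The 1 probe with a 2-fold difference between the TBP-2 effects became 7 with spike-in scaling and 0 with normexp. The additive fit's 0 member calls became 5 for Txnip and 2 for ob/ob with normexp (2.52% and 4.59% of all probes), and 1 for Txnip with a trended prior (0.485%). For these changes the cause was not tested. Differences of probes measured on both arrays with a signal under about 20 on either carry errors of 0.28 to 0.41, and 1 array a genotype limits every value. No paired analysis was possible because each genotype has 1 array.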
